A study of Mus musculus with 87 samples.

Results

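The livers compared here were collected 10 h after surgery, 6 after partial hepatectomy (X10) and 3 after a sham operation (S10). They were chosen by their labels, and the 9 libraries are part of the 80 that have a column in the deposited table, out of 87 labelled samples. All mice were C57BL/6 males of 12 to 14 weeks, kept under 12 h of light and 12 h of darkness and given food between ZT12 and ZT24, where ZT is the time since the lights came on. Surgery took place at ZT2 under isoflurane, so that both groups were collected at ZT12, when food had been absent for the whole light phase. In the PH mice about 2/3 of the liver was resected, whereas in the sham mice the abdomen was opened and no liver was removed. Each library holds the poly(A) RNA of 1 liver. X10 was collected in 2 experimental periods and S10 in 1, and the sources used here do not give the period of each replicate. A difference between periods and a difference between the operations therefore cannot be told apart from the labels, and X10 replicates 1 to 3 and 4 to 6 were also compared separately with the S10 livers. Livers of unoperated mice taken at ZT2 (C0, n = 9) and PH and sham livers at 4 h (X4, S4) and 20 h (X20, S20) are used only where named.

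After resection, the remaining hepatocytes, which are normally quiescent, leave G0, pass through a long G1 phase and then replicate their DNA, while the liver continues to supply glucose, plasma proteins and bile. During G1, fatty acids released from adipose tissue accumulate in hepatocytes as lipid droplets, which are stores of triglyceride coated by perilipins and related proteins. Growth during G1 also requires new ribosomes and a rearranged cytoskeleton.

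The depth, estimated from the spacing of the lowest values, was between 22.3 and 31.8 M (mega) reads in X10 and was 32.6, 19.9 and 17.1 M reads in S10 replicates 1, 2 and 3. Pearson correlations across genes, which are not independent replicates, were between 0.981 and 0.991 within X10, between 0.988 and 0.993 within S10 and between 0.971 and 0.986 across the groups. The summed level of the hepatocyte markers, led by albumin, was between 54367 and 61315 RPKM (reads per kilobase of transcript and per M mapped reads) in X10 and between 58723 and 62319 RPKM in S10, far above that of any other cell type. The summed level of macrophage markers differed by 0.012 on the log2 scale (two-sided exact permutation p = 0.976), that of neutrophil markers by -0.0908 (exact permutation p = 0.905) and that of endothelial markers by 0.146 (exact permutation p = 0.345). The B-cell sum lay higher in all 6 X10 libraries, at between 1.64 and 3.91 RPKM against between 0.832 and 1.17 RPKM in S10, led by Ighm, while Ms4a1 and Pax5 did not exceed 0.0885 RPKM in any library. Of its 8 members 6 were tested, and none of these was called. That difference of 1.14 gave the smallest p these group sizes allow (two-sided exact permutation p = 0.0119, 0.0774 after adjustment over the 13 marker sums). The stellate sum (0.403, exact permutation p = 0.0476, adjusted 0.155) and the cholangiocyte sum (0.552, exact permutation p = 0.0714, adjusted 0.155) were also higher post-PH, with overlapping ranges and 1 called member each, Des and Tm4sf4. The part of these cells in the differences below was not tested. In whole livers, fewer cells of a type and less RNA per cell cannot be told apart.

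Transcript levels were compared on log2(RPKM + 0.25) with limma, and a gene was called where its p, adjusted by the Benjamini-Hochberg method, was below 0.05 and its log2 fold change exceeded 0.5 in size. All fold changes below are on this scale, as X10 minus S10, and those of low transcripts come out smaller than they are. Of the 15396 genes tested, 1081 were called (7.02%), of which 524 were higher post-PH (3.4%) and 557 lower (3.62%). The median size of the called changes was 0.769 among the higher and 0.699 among the lower genes. Changes beyond 1 on the log2 scale were found for 145 higher and 96 lower genes, and beyond 2 for 18 and 9. The X10 and S10 libraries did not overlap for 448 of the called higher genes and 445 of the called lower genes (5.8% of all genes tested together), whereas over all genes tested this held for 9.2% with X10 above and 8.43% with X10 below.

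Before single genes are described, 35 lists of liver genes are set against this background in the bar plot of called members. Among the tested members of a list, the share called higher was 35.5% for the cytoskeleton list (11 of 31), 29.8% for ribosome biogenesis (14 of 47), 28.6% for lipid droplets and fatty acid uptake (8 of 28) and 19.4% for PPARα targets (7 of 36), and none of the members of these 4 lists was called lower. The shares called lower came to 19% of the core clock list (4 of 21), 17.5% of the complement and coagulation proteins (7 of 40), 17.2% of the bile acid list (5 of 29), 17.2% of the organic ion transporters (5 of 29, with 3 called higher), 15% of the pericentral genes (3 of 20, with 1 called higher) and 14.0% of cytochrome P450 families 1 to 3 (6 of 43). The lists were chosen with earlier results of these data known, so these shares describe the libraries and were not tested.

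**Figure D1:**
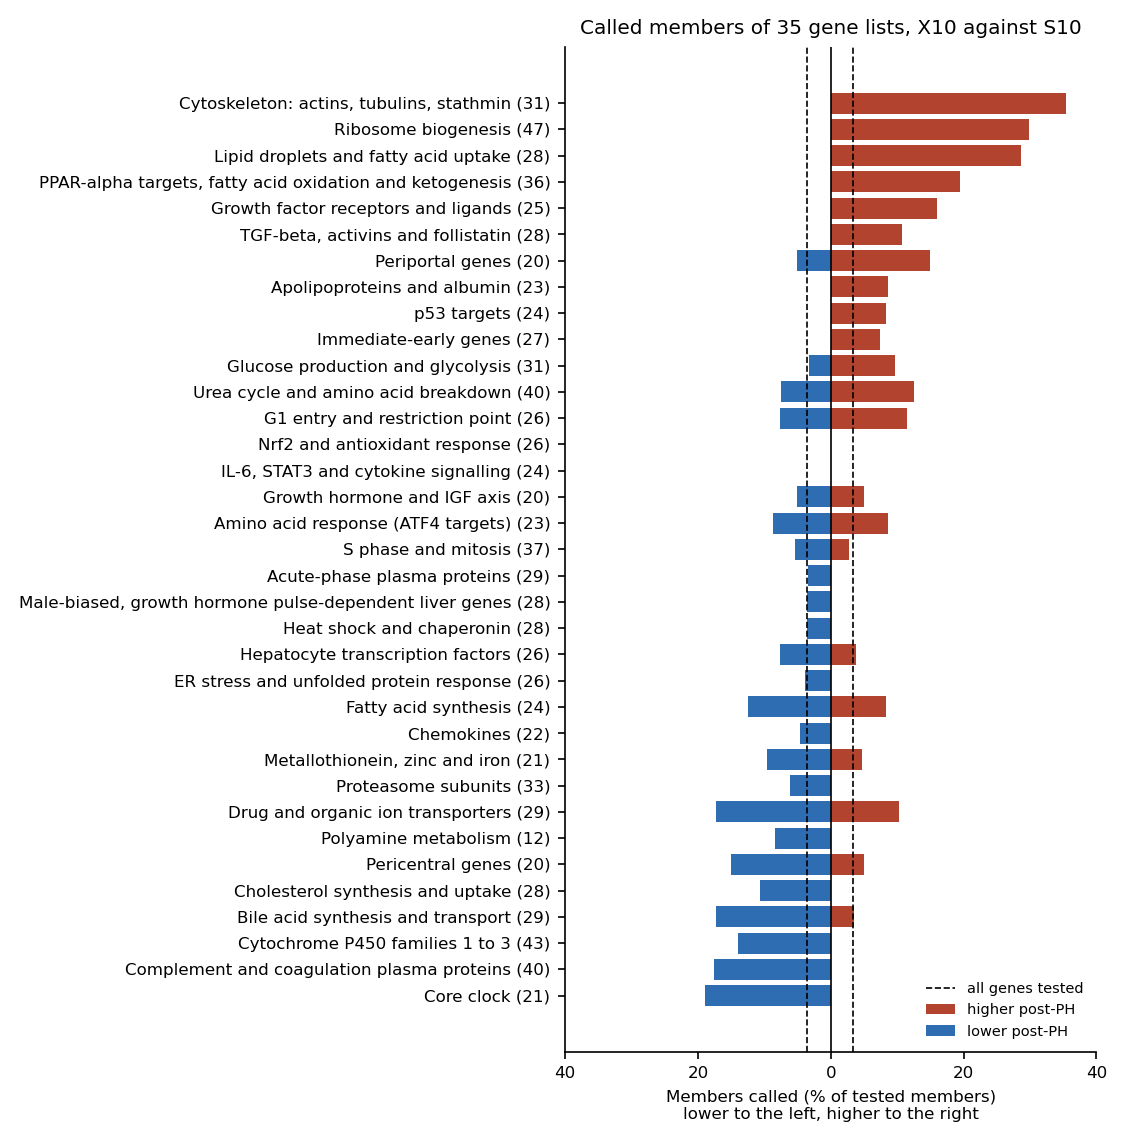
Percentage of the tested members of each of 35 gene lists (number of tested members in parentheses) called lower (blue, to the left) or higher (red, to the right) in X10 than in S10, with dashed lines at the percentages over all 15396 genes (3.62% lower and 3.4% higher). The cytoskeleton (35.5%), ribosome biogenesis (29.8%) and lipid droplet (28.6%) lists have the longest bars to the right, and the core clock (19%) and complement and coagulation (17.5%) lists have the longest to the left.

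The largest rise of all genes was in the coat of the lipid droplet. Cidec, which drives the fusion and enlargement of lipid droplets (ENSMUSG00000030278, chr6:113374628-113385754 of mm9, minus strand), had a lowest, median and highest level of 27.2, 53.4 and 133 RPKM in X10, against 3.54, 2.46 and 1.26 RPKM in the 3 S10 libraries. Every X10 library was at least several times above every S10 library, and the means of 70.8 ± 47.5 (SD, n = 6) and 2.42 ± 1.14 RPKM (SD, n = 3) differed 29.3-fold (log2 fold change 4.56, SE 0.55, adjusted p = 2.83e-08). Cidec was at 0.151 ± 0.0646 RPKM (SD, n = 9) in C0, and it had also risen from C0 in S10 by 2.65 and in X10 by 7.21 on the log2 scale. C0 was collected at ZT2, so that the time after surgery and the time of day cannot be told apart in differences from C0.

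Plin2, the main perilipin of hepatocyte lipid droplets (chr4:86294290-86315964 of mm9, minus strand), lay at 509, 708 and 1037 RPKM (lowest, median, highest) in X10 and at 210.3, 225 and 166 RPKM in S10. Without overlap, the X10 livers had 3.55 times the mean Plin2 level of the S10 livers (log2 fold change 1.80, SE 0.28, adjusted p = 5.34e-06). Plin4, another perilipin, was at 3.36, 7.05 and 10.3 RPKM in X10 and at 1.05, 1.34 and 1.59 RPKM in S10 (2.15, SE 0.49, adjusted p = 0.0017). Fabp4, a fatty acid carrier known from adipocytes and macrophages, was at 15.3, 36.1 and 56.0 RPKM against 8.97, 8.12 and 11 RPKM (1.85, SE 0.33, adjusted p = 6.25e-05). The groups did not overlap for either gene. Plin5, which links droplets to mitochondria, rose by 1.23 (adjusted p = 0.0149), a call that ended without S10 replicate 1 (adjusted p = 0.0596) or replicate 3 (0.0765). The 3 further called members of the list, Hilpda, Fitm2 and Pnpla2, lost their calls when any of the 3 S10 libraries was left out, and without S10 replicate 1 the list had 4 called members.

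Cidec and Fabp4 are also among the adipocyte markers, whose summed level was between 46.3 and 175 RPKM in X10 and between 14.0 and 16.6 RPKM in S10 (log2 difference 2.70, exact permutation p = 0.0119 and 0.0774 adjusted over the 13 sums). They were the 2 called members of the 5 tested. Of the other listed markers, Lep and Retn were at 0 in all 9 libraries, and Adipoq, Plin1 and Cfd did not exceed 0.0235, 0.0468 and 0.492 RPKM. Pparg was between 2.56 and 3.29 RPKM in X10 and between 2.12 and 3.03 RPKM in S10. Lpl was between 0.765 and 1.43 RPKM in X10 and between 0.686 and 1.14 RPKM in S10. An adipose source of these transcripts was not tested.

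Genes of fatty acid oxidation were also called higher. Ehhadh, the bifunctional enzyme of peroxisomal beta-oxidation and a classical target of the fatty acid receptor PPARα, lay at 96.5, 205 and 296 RPKM in X10 and at 59.6, 78.8 and 38.5 RPKM in S10 (1.68, SE 0.33, adjusted p = 0.000324). Ppargc1a, the coactivator PGC-1α, was at 1.72, 2.43 and 3.59 RPKM against 0.736, 0.726 and 0.790 RPKM (1.45, SE 0.28, adjusted p = 0.000192). For both genes all X10 values were above all S10 values. Acot2, a mitochondrial acyl-CoA thioesterase, was called with a change of 1.69 (adjusted p = 0.00742). This call ended without S10 replicate 3 (adjusted p = 0.0822), and the number of called PPARα targets was then 3 rather than 7. Decr1 (0.57), Ucp2 (0.88) and Aldh3a2 (0.84) were also among the called members, and the median log2 fold change of the whole list was 0.36, against -0.0049 over all genes. Slc22a5, the carnitine transporter, rose as well (1.08, SE 0.27, adjusted p = 0.00493).

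**Figure D2:**
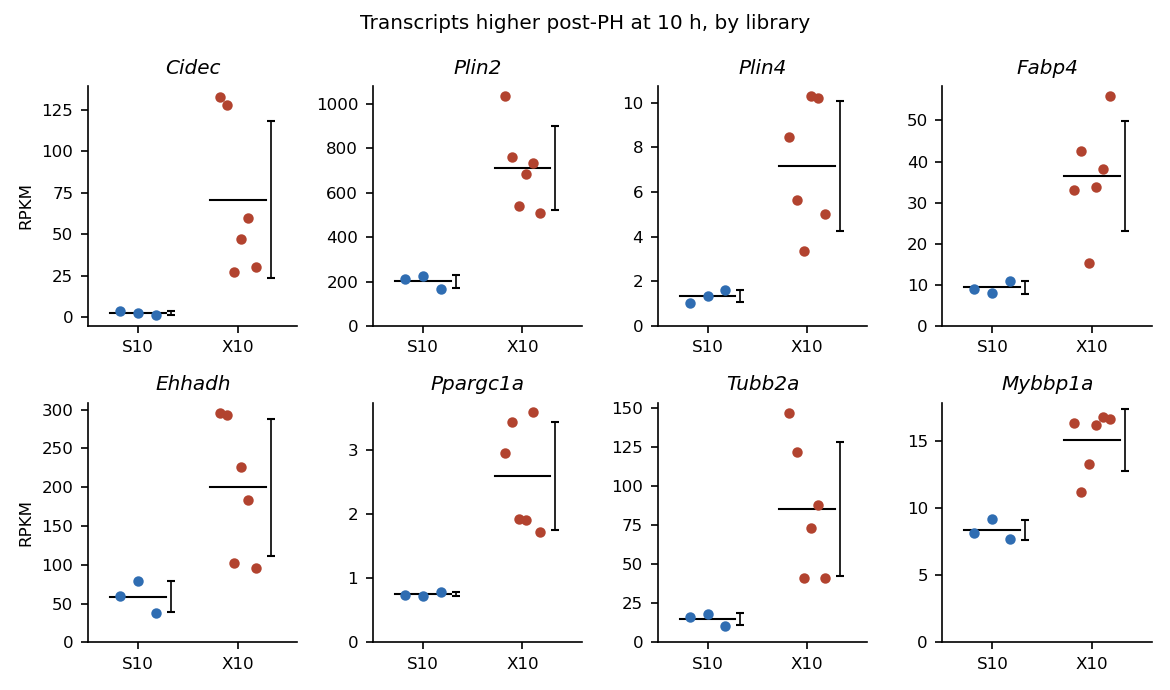
RPKM (linear axis) of 8 transcripts that rose post-PH, with a point for each of the 3 S10 (blue) and 6 X10 (red) libraries, the mean as a line and the SD as a bar beside the points. In all 8 panels every X10 point lies above every S10 point, and the X10 livers spread widely for Cidec, from 27.2 to 133 RPKM.

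Cytoskeletal genes formed the list with the highest share of calls, and its median log2 fold change was 0.494. Tubb2a, a β-tubulin (chr13:34166170-34169877 of mm9, minus strand), was at 41.1, 80.5 and 147 RPKM in X10 and at 16.2, 17.9 and 10.4 RPKM in S10 (2.38, SE 0.30, adjusted p = 9.72e-08). Its level in C0 was 80.5 ± 13.9 RPKM (SD, n = 9), and compared with C0 it had changed by -0.06 in X10 and by -2.44 in S10. Tubb2a was therefore lower in the sham livers than in the resting livers and similar to these in the X10 livers, although the hour of collection differs. Tubb2b, a close copy that may share reads with Tubb2a, rose by 2.33 (SE 0.30, adjusted p = 1.45e-07), and Tubb6 rose by 1.65.

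The actin genes moved in the same direction. Actb was at 288, 381 and 530 RPKM against 166, 190.4 and 180.3 RPKM (1.12, SE 0.19, adjusted p = 2.2e-05), and Actg1 was at 60.8, 112 and 276 RPKM against 30.3, 34.6 and 40.4 RPKM (1.71, SE 0.35, adjusted p = 0.000478). Neither gene had an X10 value within the S10 range. Among the genes of actin-binding proteins, the filament cross-linker Flna rose by 1.55 (SE 0.23, adjusted p = 1.79e-06), and the tropomyosins Tpm1 and Tpm4 by 0.98 (SE 0.15, adjusted p = 4.41e-06) and 1.2 (SE 0.23, adjusted p = 0.000251). Tagln, encoding the actin-binding protein transgelin, was not in the list but was among the largest rises, at 2.94, 5.76 and 9.62 RPKM in X10 and 0.520, 0.823 and 1.21 RPKM in S10 (2.46, SE 0.40, adjusted p = 1.5e-05). Krt18, a keratin of hepatocytes and bile duct cells, rose by 1.05 (adjusted p = 0.00299). The list had between 10 and 14 called members when 1 library was left out, and it had 12 both with X10 replicates 1 to 3 alone and with replicates 4 to 6 alone.

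Several receptors and secreted factors of growth control were higher post-PH. Tnfrsf12a, the receptor for the cytokine TWEAK, lay at 36.8, 49.0 and 77.7 RPKM in X10 and at 9.83, 12.3 and 6.42 RPKM in S10 (2.43, SE 0.33, adjusted p = 3.84e-07). Bmper, a secreted regulator of BMP signalling, was at 4.04, 8.55 and 11.6 RPKM against 1.30, 0.953 and 2.18 RPKM (2.20, SE 0.35, adjusted p = 1.16e-05). The groups did not overlap for these genes or for Id1, a target of BMP signalling that blocks bHLH factors (2.20, SE 0.42, adjusted p = 0.000157). Btc, a ligand of the EGF receptor, rose by 1.16 (SE 0.20, adjusted p = 2.56e-05). Hgf, the hepatocyte growth factor made by non-parenchymal cells, was at 1.73, 2.00 and 2.66 RPKM against 0.876, 0.875 and 1.23 RPKM (0.91, adjusted p = 0.00844), and this call ended without S10 replicate 1 (adjusted p = 0.0527) or 2 (0.0619). Of the 25 tested growth factor genes 4 were called higher (16%, against 3.4% of all genes) and none lower. Without S10 replicate 2 only 1 was called.

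Cyr61 and Ctgf, secreted matricellular proteins that respond to YAP and SRF, rose by 1.52 (SE 0.36, adjusted p = 0.00259) and 1.54 (SE 0.39, adjusted p = 0.00489). Ctgf was not called with X10 replicates 1 to 3 alone (1.16, adjusted p = 0.0768). Ly6d, a GPI-anchored surface protein, had a level between 24.2 and 38.3 RPKM in X10 and of 4.11, 4.80 and 5.32 RPKM in S10 (2.69, SE 0.52, adjusted p = 0.000189). Gdf15, a stress-induced hormone, rose by 1.71 (adjusted p = 0.00162). The remaining large rises were in non-coding RNA, with changes of 2.56 for Gm15441, 2.25 for Gm20419, 2.39 for Snord100 and 2.23 for SNORA8. The 2 small nucleolar RNAs did not exceed 0.788 RPKM in S10, and short RNAs of this kind are poorly captured by poly(A) selection. Snord100 was not called without S10 replicate 1 (adjusted p = 0.0528), S10 replicate 2 (0.211) or X10 replicate 4 (0.0514), and SNORA8 was not called without S10 replicate 3 (0.0752).

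Immediate-early genes answer to growth signals without new protein synthesis. Of the 27 tested members 2 were called higher (7.41%, against 3.4% of all genes) and none lower. Klf6 (1.19, SE 0.27, adjusted p = 0.0017) and Klf4 (0.69) were the called members, the latter not without any 1 of the S10 libraries. Jun lay at 8.16, 11.1 and 13.6 RPKM in X10 and at 6.68, 6.76 and 3.91 RPKM in S10 and missed the threshold (0.94, adjusted p = 0.0911). Myc was at 2.34, 2.85 and 3.54 RPKM against 2.18, 2.07 and 1.5 RPKM (0.55, adjusted p = 0.433). For both genes all X10 values were above all S10 values, and the median of the list was 0.446.

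Genes for making ribosomes were called in 1 direction, with small changes. Mybbp1a, which takes part in pre-rRNA processing (chr11:72254857-72265270 of mm9, plus strand), was at 11.2, 16.2 and 16.7 RPKM in X10 and at 8.10, 9.18 and 7.72 RPKM in S10 (0.82, SE 0.11, adjusted p = 5.9e-07). Nop56 and Nop58, the core proteins of the box C/D small nucleolar particles that methylate rRNA, rose by 1.03 (SE 0.18, adjusted p = 6.59e-05) and 0.98 (SE 0.20, adjusted p = 0.000521). The other called members included the pre-40S factor Tsr1 (0.87, SE 0.17, adjusted p = 0.000262), the processome subunit Wdr43 (0.70, SE 0.13, adjusted p = 0.000142), the helicase Ddx21 (0.65, SE 0.13, adjusted p = 0.0004) and the export factor Rrp12 (0.74, SE 0.17, adjusted p = 0.00153). None of the 47 tested members was called lower, and the median over all of them was 0.383. The number called was 8 without S10 replicate 3, 8 with X10 replicates 1 to 3 alone and 19 with replicates 4 to 6 alone. By library, the median of the list, as a difference from the S10 mean, was between 0.136 and 0.506 in X10 and was 0.0812, 0.0933 and -0.123 in S10.

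The promoters of these genes were searched for 4 motifs because the called members had moved together. The sequence CACGTG, the E-box that is read by MYC, its partners and the clock factors, occurred in the window from 250 bases before to 50 bases after an annotated start for 7 of the 12 called members with a window (58.3%), for 4 of the 29 tested members that were not called (13.8%), and for 8.09% of all 27025 genes. It reads the same on both strands. A match is a description of the letters and not a site of binding. The 7 stretches of 30 bases below are from RefSeq on GRCm38.p6, written 5′ to 3′ along the gene with the motif in capitals.
Nop2 (chr6:125131811-125131840, plus strand): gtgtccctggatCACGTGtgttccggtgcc
Wdr43 (chr17:71616220-71616249, plus strand): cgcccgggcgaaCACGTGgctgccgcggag
Utp20 (chr10:88826765-88826794, minus strand): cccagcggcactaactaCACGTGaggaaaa
Mybbp1a (chr11:72441347-72441376, plus strand): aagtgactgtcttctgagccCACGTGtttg
Nle1 (chr11:82908355-82908384, minus strand): tcggttctcctcCACGTGgggacgcaggat
Grwd1 (chr7:45830740-45830769, minus strand): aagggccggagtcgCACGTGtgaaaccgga
Tsr1 (chr11:74898092-74898121, plus strand): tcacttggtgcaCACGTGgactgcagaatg

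In 6 of these genes the motif began after the annotated start, at between 18 and 41 bases, and in Nop2 it began at -60. The calls of Nop2 (adjusted p = 0.18), Utp20 (0.161) and Grwd1 (0.192) ended without S10 replicate 3. The CArG box, the site of the serum response factor, was found in 2 of the 8 called cytoskeletal genes with a window (Actg1 and Vcl), in 0 of the 19 that were not called and in 1.81% of all genes. The D-box TTATGTAA was in 1 of the 3 called clock genes with a window (Per3) and in 1.11% of all genes, and the DR1 element, which PPARα binds together with its partner RXR, was in none of the called PPARα targets and in 0.0481% of all genes.

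Of the cell cycle genes, Cdkn1a, the inhibitor p21, had the largest difference. It was at 2.56, 8.02 and 15.4 RPKM in X10 and at 0.618, 0.542 and 0.971 RPKM in S10 (2.97, SE 0.66, adjusted p = 0.00121). C0 was variable for this gene (15.9 ± 20.3 RPKM, SD, n = 9), and the change from C0 was 0.22 in X10 and -2.75 in S10. Ccnd1, the cyclin of G1 progression, lay at 16.1, 24.7 and 31.3 RPKM against 12.1, 11.8 and 7.10 RPKM, with no overlap (1.22, SE 0.37, adjusted p = 0.0193), and was no longer called without S10 replicate 3 (0.97, adjusted p = 0.166). Its difference was 0.09 at 4 h and 2.42 at 20 h. Of the 37 tested genes of S phase and mitosis 2.7% were called higher and 5.41% lower, near the shares of all genes (3.4% and 3.62%). Mcm3 was called higher (0.95) and Mcm10 (-1.13, adjusted p = 0.0124) and Tk1 (-0.81) lower, and each of these calls ended without at least 1 of the S10 libraries. E2f1 (-0.74) and Cdkn2d (-0.81) were called lower on the same terms, while Rb1 (0.05) and E2f5 (-0.01) were not called.

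The largest falls were in specialised functions of the hepatocyte. Cyp7a1, the rate-limiting enzyme of bile acid synthesis (chr4:6192759-6202780 of mm9, minus strand), was at 0.294, 1.28 and 5.91 RPKM in X10 and at 24.4, 22 and 14.4 RPKM in S10 (-3.62, SE 0.60, adjusted p = 1.66e-05). Hsd3b5, a steroid dehydrogenase of male mouse liver (chr3:98422559-98434232 of mm9, minus strand), was at 0.116, 0.364 and 6.48 RPKM against 28.6, 25.3 and 15.2 RPKM (-4.64, SE 0.77, adjusted p = 1.7e-05). The highest X10 liver was below the lowest S10 liver for both genes, and the S10 means were 9.97 and 16.3 times the X10 means. In C0, Cyp7a1 was at 16 and Hsd3b5 at 117 RPKM.

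Transcripts for the uptake of bile acids were lower too. Slc10a1, the sodium-dependent bile acid importer NTCP, lay at 48.1, 89.0 and 109.8 RPKM in X10 and at 159.9, 169 and 154 RPKM in S10 (-0.99, SE 0.22, adjusted p = 0.00156). Slco1b2, an organic anion importer, lay at 30.5, 52.1 and 80.9 RPKM against 94.3, 97.2 and 95.2 RPKM (-0.95, SE 0.19, adjusted p = 0.000427). Abcb4, the canalicular phosphatidylcholine exporter, went the other way and was the only bile acid list member called higher (0.82, SE 0.17, adjusted p = 0.000375). Slc22a3, an organic cation transporter, also rose (1.6, SE 0.25, adjusted p = 5.29e-06). The other bile acid genes called lower were Akr1d1, a reductase of bile acid synthesis (-0.95, adjusted p = 0.0133), whose call ended without S10 replicate 3 (adjusted p = 0.0782), and Cyp2c70 (-1.05, adjusted p = 0.0436), which makes muricholic acids and whose call ended when any of the S10 libraries was left out.

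In the cytochrome P450 families, Cyp2e1, an ethanol-inducible and abundant enzyme of the pericentral zone, lay at 932, 1236 and 1601 RPKM in X10 and at 2300.4, 2451 and 2206 RPKM in S10 (-0.91, SE 0.20, adjusted p = 0.00147). Cyp2a5, a coumarin hydroxylase, was at 8.50, 17.8 and 32.2 RPKM against 80.3, 74.8 and 44.5 RPKM (-1.87, SE 0.46, adjusted p = 0.00331). Both were lower in every X10 library. Cyp2a4, which is nearly identical to Cyp2a5 and may share its reads, was called at -1.61, but not without S10 replicate 1 (adjusted p = 0.0694) or 2 (0.0845). The retinoic acid hydroxylase Cyp26a1 fell by 1.82 on the log2 scale (adjusted p = 0.00314) and Cyp2d40 by 0.74 (adjusted p = 0.0035). No member of the 43 tested P450 genes was called higher, and 3 rather than 6 were called lower without S10 replicate 1 or 2.

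Among the transcription factors that maintain the hepatocyte, Cebpa, which restrains proliferation, was at 38.0, 48.1 and 63.1 RPKM in X10 and at 98.2, 105 and 83.0 RPKM in S10 (-0.96, SE 0.18, adjusted p = 0.000148). The groups did not overlap, and the difference was -1.18 at 4 h and -0.97 at 20 h. Of the 26 tested factors 7.69% were called lower and 3.85% higher, against 3.62% and 3.4% of all genes. Besides Cebpa, Onecut2 (-0.52) was called lower, and the xenobiotic receptor Nr1i2 (0.62) was called higher. The calls of Onecut2 and Nr1i2 ended when S10 replicate 1 or 2 was left out. Lgr5, a Wnt co-receptor of the hepatocytes nearest the central vein, was below 0.5 RPKM in all 9 libraries and fell by 0.78 (adjusted p = 0.00321).

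**Figure D3:**
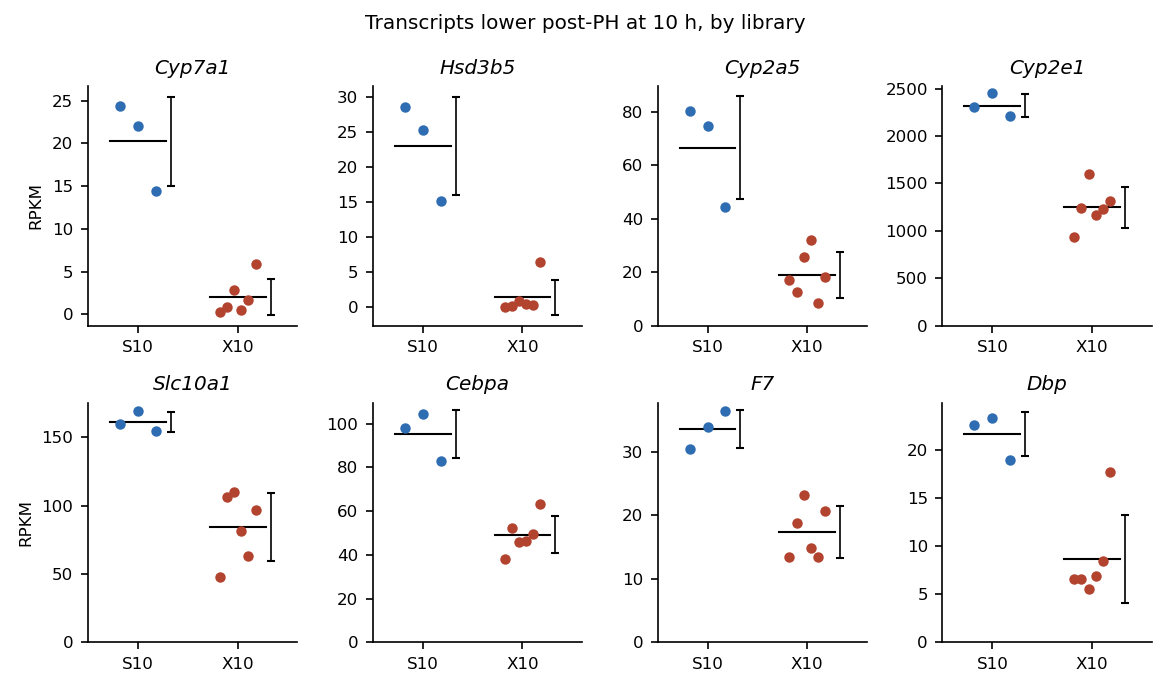
RPKM (linear axis) of 8 transcripts that fell post-PH, with a point for each of the 3 S10 (blue) and 6 X10 (red) libraries, the mean as a line and the SD as a bar beside the points. In all 8 panels every X10 point lies below every S10 point, and for Dbp X10 replicate 6 (17.8 RPKM) lies close to the S10 livers.

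Other large falls were in genes of no common list. Akr1c14, a hydroxysteroid dehydrogenase, was between 4.66 and 21.9 RPKM in X10 and at 42.1, 43.1 and 44.6 RPKM in S10 (-1.89, SE 0.26, adjusted p = 5.9e-07). Enpp3, an ectonucleotide pyrophosphatase, was at 1.34, 2.59 and 7.21 RPKM against 10.3, 12.7 and 15.5 RPKM (-2.05, SE 0.24, adjusted p = 8.35e-09). The X10 and S10 livers did not overlap for these genes. Keg1 (-2.37), the uridine phosphorylase Upp2 (-2.01), the neutrophil protease Prtn3 (-2.20), the secreted peptide Prok1 (-2.08) and the mitochondrial tRNA mt-Ti (-1.89) were called lower as well. These calls held under all 18 alternatives other than those on replicates 1 to 3 of both groups alone. Derl3, a protein of ER-associated degradation, was at 10.3, 15.1 and 38.7 RPKM in S10 and fell by 2.86 on the log2 scale (adjusted p = 0.00877), but not without S10 replicate 3 (-2.32, adjusted p = 0.108).

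Plasma proteins divided into those of coagulation and complement, several of which were lower, and the major acute-phase proteins, which were high in both groups. F7, coagulation factor VII, was at 13.4, 16.8 and 23.2 RPKM in X10 and at 30.4, 33.9 and 36.4 RPKM in S10 (-0.97, SE 0.13, adjusted p = 2.6e-07). Serpind1, the thrombin inhibitor heparin cofactor II, was at 48.7, 57.3 and 80.6 RPKM against 104, 103 and 108 RPKM (-0.80, SE 0.15, adjusted p = 0.000137). No X10 value of these genes reached the lowest S10 value. Factor X (F10) fell by 0.57 (adjusted p = 1e-05), prekallikrein (Klkb1) by 0.97 (adjusted p = 5.89e-05), and the complement components C2 and C8b by 0.59 and 0.60, the latter not without S10 replicate 2 (adjusted p = 0.0553) or 3 (0.0977). Mbl2, the mannose-binding lectin that starts the lectin pathway, was at 50, 65.0 and 82.3 RPKM in X10 and at 159.9, 155 and 138 RPKM in S10 (-1.21, SE 0.25, adjusted p = 0.000586).

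The serum amyloid genes Saa1 and Saa2, which may share reads, did not separate the groups. Saa1 was at 8424, 13413 and 17256 RPKM in X10 and at 15634, 15371 and 17967 RPKM in S10 (-0.35, adjusted p = 0.81), against 121 RPKM in C0, and Saa2 had a change of -0.32. Saa3, which macrophages make as well as hepatocytes, was at 45.6, 156 and 445 RPKM against 379, 389 and 2090.25 RPKM (-2.37, adjusted p = 0.0558), with S10 replicate 3 far above the rest. Saa4, a constitutive apolipoprotein of HDL, was called, at 56.7, 104 and 131 RPKM against 216, 239 and 263 RPKM (-1.41, SE 0.29, adjusted p = 0.000578). Alb was at 19375, 22249.6 and 23769 RPKM in X10 and at 23988, 23378 and 20720 RPKM in S10 (-0.06, adjusted p = 0.895). None of the 24 tested genes of IL-6 and STAT3 signalling was called by limma in either direction, against 7.02% of all genes. Of the 24, 5 had an unadjusted p below 0.05, as had 3833 of all 15396 genes tested.

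Part of the circadian output was lower at this hour. Dbp, a PAR bZIP factor driven directly by the clock, was at 5.56, 6.76 and 17.8 RPKM in X10 and at 22.6, 23.3 and 19 RPKM in S10 (-1.41, SE 0.33, adjusted p = 0.00208). With X10 replicates 4 to 6 alone, which include the high library, it was not called (-1.07, adjusted p = 0.0729). The period gene Per3 was at 0.921, 1.39 and 1.84 RPKM against 2.44, 2.33 and 2.52 RPKM (-0.72, SE 0.17, adjusted p = 0.00326). Arntl (0.31, adjusted p = 0.35) and Nr1d1 (-0.19, adjusted p = 0.902), which belong to the core loop, were not called. Tef was called (-0.69, adjusted p = 0.0493), but not when any 1 of the S10 libraries was left out.

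In lipid synthesis, a fall of 1 regulator stood beside differences among the X10 livers. Mlxipl, the carbohydrate-sensing factor ChREBP, was at 6.06, 8.55 and 11.1 RPKM in X10 and at 19.8, 23.0 and 18.8 RPKM in S10 (-1.30, SE 0.28, adjusted p = 0.000784). Insig2, which retains the SREBP complex in the ER, rose, at 58.2, 121 and 179.6 RPKM against 29.8, 26.9 and 30.4 RPKM (2.01, SE 0.27, adjusted p = 2.96e-07). Its difference from C0 was 0.55 in X10 and -1.46 in S10 on the log2 scale. The 28 tested genes of cholesterol synthesis and uptake had a median change of -0.582. Of these, 3 were called lower (10.7%, against 3.62% of all genes) and none higher, with Fdps (-1.18) and Insig1 (-1.29) among the called. Without S10 replicate 2 none of the list was called, with X10 replicates 1 to 3 alone 7 were, and with replicates 4 to 6 alone none was. By library, the median of the list as a difference from the S10 mean was -1.12, -1.09, -0.135, 0.129, -0.738 and -0.289 in X10 replicates 1 to 6, and -0.161, -0.101 and 0.255 in the S10 livers. X10 replicates 1, 2 and 5 were therefore well below the S10 livers, whereas replicates 3, 4 and 6 were near them, as the map of list medians shows. Of the 26 tested genes of the ER stress list 1 was called lower with all libraries (3.85%, near the 3.62% of all genes). It was the sensor IRE1α (Ern1, -0.65, adjusted p = 0.000911). With X10 replicates 1 to 3 alone 6 members were called lower, and with replicates 4 to 6 alone none was.

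**Figure D4:**
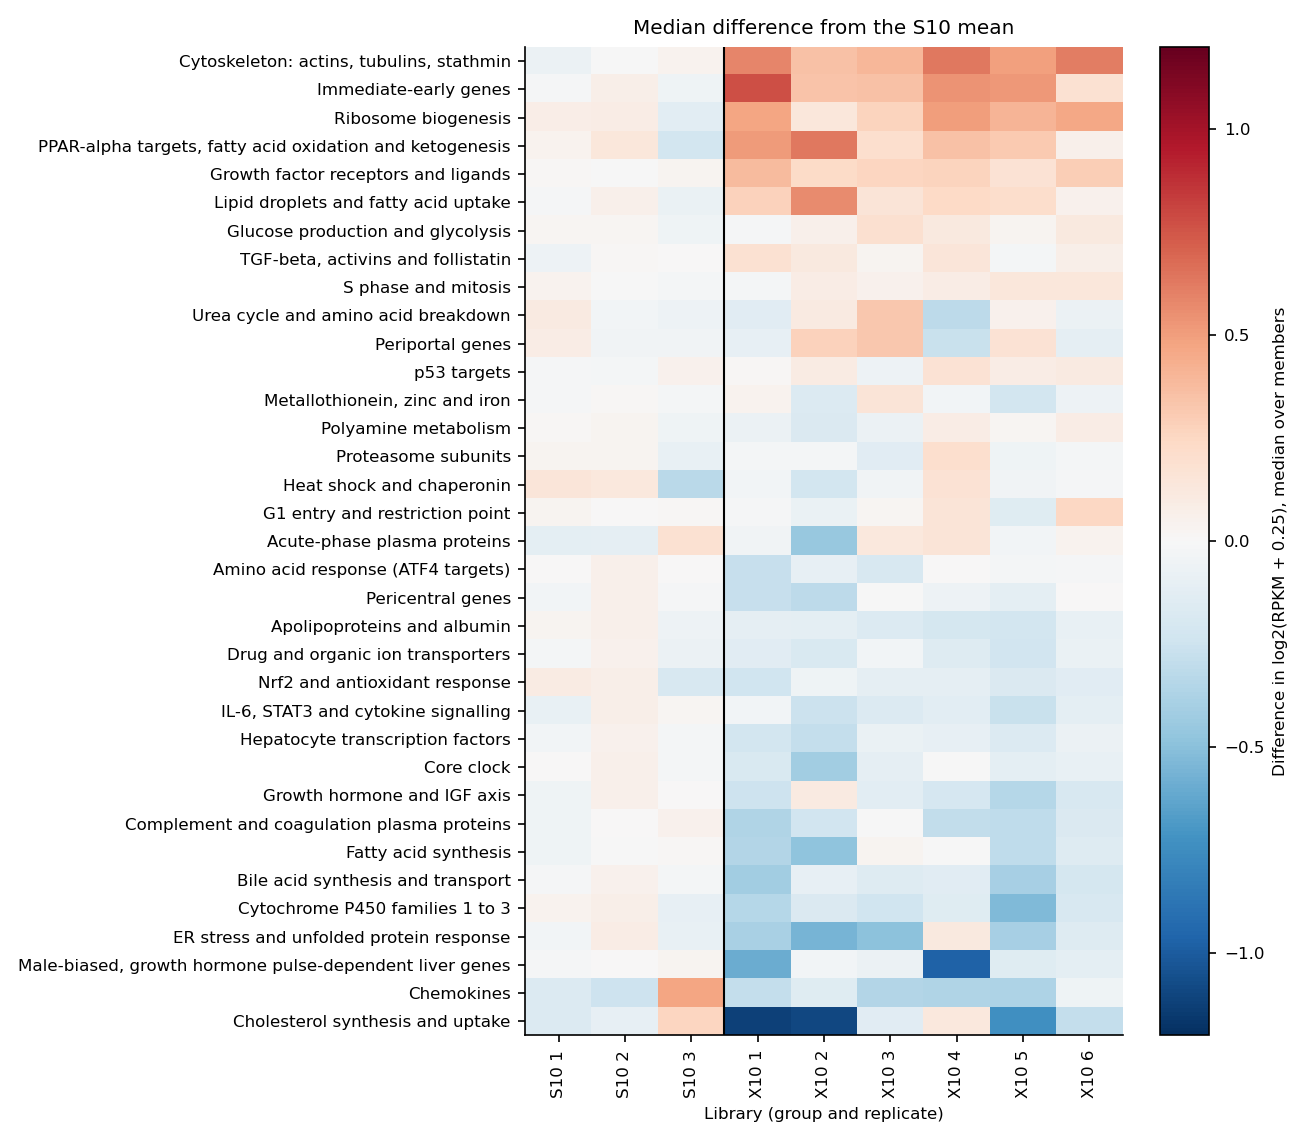
Median over the tested members of each gene list of the difference between a library and the S10 mean on log2(RPKM + 0.25), for the 3 S10 libraries (left of the line) and the 6 X10 libraries, with red above and blue below the S10 mean. The cytoskeleton list is above the S10 mean in all X10 libraries (0.347 to 0.634), and the cholesterol list ranges from -1.12 in X10 replicate 1 to 0.129 in replicate 4.

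Nitrogen metabolism moved in both directions. Cps1, the entry enzyme of the urea cycle, was at 885, 1238 and 1503 RPKM in X10 and at 717, 665 and 558 RPKM in S10 (0.90, SE 0.20, adjusted p = 0.00137). Arg1, which releases urea, was at 1388, 1728 and 1914 RPKM against 1192, 1001 and 997 RPKM (0.65, SE 0.15, adjusted p = 0.00252). For both, and for the ornithine carrier Slc25a15 (0.84, SE 0.18, adjusted p = 0.000651), the X10 livers lay above the S10 livers. Aass, which begins lysine breakdown, rose by 1.30 (SE 0.18, adjusted p = 8.27e-07) and the alanine aminotransferase Gpt2 by 1.03 (SE 0.23, adjusted p = 0.00141). By contrast, Bckdha, a subunit of the branched-chain ketoacid dehydrogenase, fell by 0.78 (SE 0.11, adjusted p = 1.06e-06), and Haao of tryptophan breakdown fell by 0.63 (SE 0.12, adjusted p = 0.000154).

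The lists described next had 0 to 2 calls each, to be read against the 7.02% called over all genes. Of the 26 tested genes of the Nrf2 response none was called by limma. An unadjusted p below 0.05 was found for 5 of them, and for 3833 of all 15396 genes tested. Of the 33 proteasome genes 2 were called lower (6.06%), the immunoproteasome subunits Psmb8 and Psmb10, neither without S10 replicate 3. Of the 22 chemokines 1 was called, Cxcl12, an attractant of leukocytes made by vascular and stellate cells, which was at 15, 22.6 and 31.6 RPKM in X10 and at 41.9, 44.7 and 42.7 RPKM in S10 (-1.0, SE 0.18, adjusted p = 6.09e-05). In the growth hormone axis, where Insig2 was the member called higher, Igfals, the acid-labile subunit that stabilises circulating IGF-1, fell by 1.07 (SE 0.26, adjusted p = 0.00354). The major urinary protein genes Mup11 (-0.34) and Mup17 (-0.32), which are near-identical copies, were not called. In the male-biased list only Hsd3b5 was called.

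The difference between PH and sham at 10 h was then compared with that at 4 h and at 20 h, by the contrast of the 2 differences in the same model. As all surgery took place at the same time of day, the livers of 4, 10 and 20 h were collected at different times of day. The time after surgery and the time of day, with its feeding or fasting, therefore cannot be told apart in differences between these hours. Only 3 of the 6 labelled X4 livers have a column, and 5 S4 livers were used. The 4 columns that match no labelled sample are named like further sham livers of 4 h, so it is unsure which livers they hold, and this limits the comparison with 4 h. Between 10 and 4 h, 575 genes (3.73% of those tested) differed in their response, 394 with a higher (2.56%) and 181 with a lower value at 10 h (1.18%). Between 10 and 20 h, 16 genes did (0.104%), 3 higher (0.0195%) and 13 lower (0.0844%). In the single comparisons of PH and sham livers, 8.64% of genes were called at 4 h and 7.11% at 20 h. The split at 4 h depended on scaling, since libraries scaled to the same median gave 357 higher and 335 lower genes, and the number was 257 without S10 replicate 3.

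Among the genes named above, Enpp3 (-1.67, adjusted p = 0.00197), Akr1c14 (-2.17, adjusted p = 0.000499), Upp2 (-2.62, adjusted p = 0.0062) and Serpind1 (-0.93, adjusted p = 0.00678) had a lower log2 fold change at 10 h than at 4 h. Their changes at 4 h were -0.37, 0.27, 0.61 and 0.13, and none of these was called. Bmper (2.37, adjusted p = 0.00347) and Nop58 (1.25, adjusted p = 0.00678) had a higher log2 fold change at 10 h, from uncalled values of -0.17 and -0.27 at 4 h. These 6, together with Fbf1, a component of cilia, and Cbfa2t3, a transcriptional corepressor, were the 8 of 41 named genes with a called difference to 4 h that were called under all 14 alternatives. Fbf1 had risen at 4 h (3.26, SE 0.35) and was at 0.08 at 10 h (difference -3.18, adjusted p = 2.71e-05), while Cbfa2t3 rose at 10 h by 1.58 (difference 1.46, adjusted p = 0.00322). Tnfrsf12a (2.01, adjusted p = 0.00823) and Hsd3b5 (-4.13, adjusted p = 0.0189) also differed from 4 h. The call of Tnfrsf12a ended without S10 replicate 3 (1.76, adjusted p = 0.0566). That of Hsd3b5 ended without S10 replicate 1 (-3.95, adjusted p = 0.0504) and with X10 replicates 4 to 6 alone (-3.53, adjusted p = 0.0619).

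Cyp7a1 differed from both other times. Its mean was 0.404 RPKM in X4 and 0.936 RPKM in S4, then 2.03 in X10 and 20.2 in S10, and 27.6 in X20 and 23.3 in S20. The S10 level was thus close to that of both groups at 20 h, and the X10 level was far below it, although the time of day of collection differs between these hours. The change at 10 h was more negative than at 4 h by 3.00 (adjusted p = 0.0298) and than at 20 h by 3.79 (adjusted p = 0.038), calls that held under 8 and 6 of the 14 alternatives. Leaving out S10 replicate 1, 2 or 3 or X10 replicate 1 or 4 ended both calls, with an adjusted p between 0.0523 (S10 replicate 3) and 0.0716 (S10 replicate 1) for 4 h and between 0.0557 (X10 replicate 4) and 0.106 (S10 replicate 2) for 20 h. Both calls also ended with X10 replicates 4 to 6 alone (adjusted p = 0.0711 for 4 h and 0.131 for 20 h). X10 replicates 2 (adjusted p = 0.0508) and 5 (0.0587) also decided the call for 20 h, while the difference stayed negative throughout. Enpp3 was also more strongly lower at 10 h than at 20 h (-1.83, adjusted p = 0.0042), though not with X10 replicates 1 to 3 alone (-1.52, adjusted p = 0.0505). For Cidec, which was higher post-PH by 2.87 at 4 h, 4.56 at 10 h and 2.26 at 20 h, neither difference between times was called (adjusted p = 0.238 and 0.242).

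**Figure D5:**
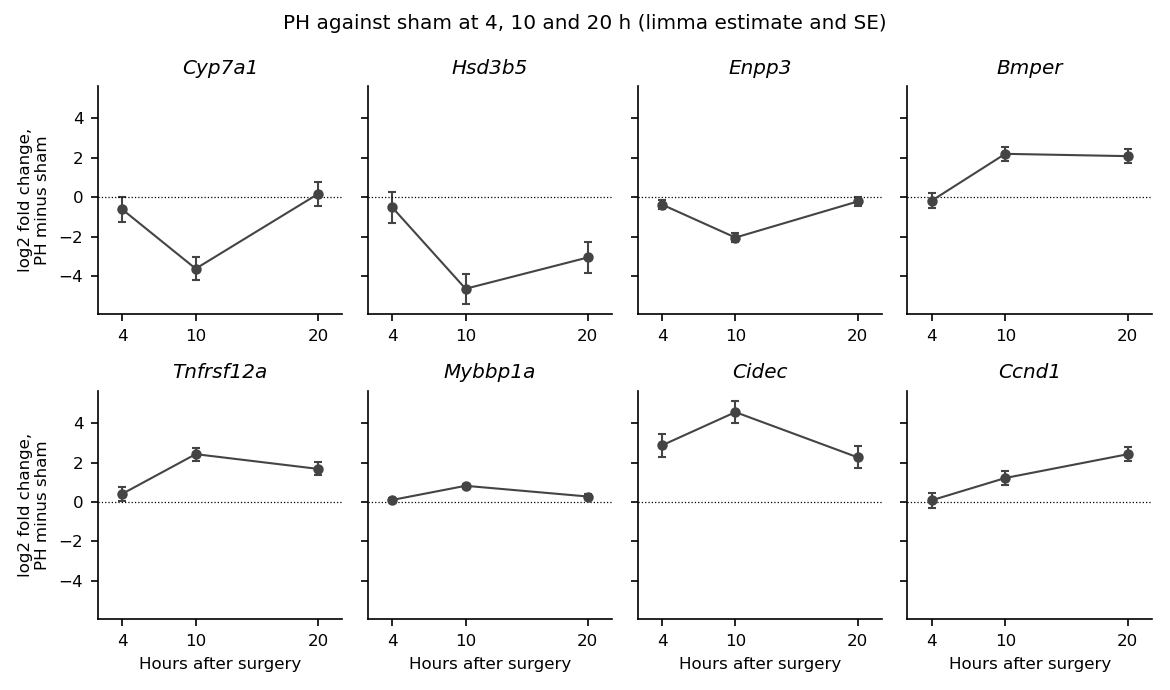
Log2 fold change between PH and sham livers (limma estimate, error bars SE) of 8 genes at 4, 10 and 20 h after surgery, with 0 as a dotted line and the same vertical axis in all panels. Cyp7a1 and Enpp3 are lowest at 10 h (-3.62 and -2.05) and Bmper is near 0 at 4 h, while Ccnd1 goes from 0.09 at 4 h through 1.22 to 2.42 at 20 h. The hours also differ in the time of day of collection.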

How the data were processed

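The authors mapped the reads with TopHat2 2.0.13 and Bowtie2 to mm9, with SAMtools 0.1.19, and counted them per gene of Ensembl 67 with featureCounts on the transcribed strand, a read with several positions being divided among them. The deposited table gives, for each of 37991 genes, the log2 RPKM calculated by the authors, with genes at 0 reads listed at -14.29. As RPKM is relative to the library's total, abundant transcripts that change shift all others. In the 84 columns, 4 matched no labelled sample and were not used.

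Depth was estimated from the RPKM of 1 read, using exon lengths joined to 37205 genes. Between 75.2% and 78.1% of the values of at most 10 reads came within 0.05 of a whole read, so no test on counts was run. Genes above -1.5 in at least 1 of the 80 libraries were kept. Values were converted to log2(RPKM + 0.25) and fitted with limma 3.58.1 in R 4.3.3 in 1 model of 19 groups, with a variance trend. The method was tested on simulated data. P values were adjusted over all genes of a contrast by the Benjamini-Hochberg method. Exact permutation tests (two-sided) were used for summed marker levels, with scipy 1.17.1, pandas 2.3.3 and numpy 2.4.6 under Python 3.11.15 and matplotlib 3.10.9 for figures. Positions of genes are those of mm9, and promoter windows are from RefSeq on GRCm38.p6.

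The members, lists and tests were chosen with earlier results of these data known. Genes were named by a rule: the 12 largest rises and 12 largest falls among called genes without overlap between the groups and with a mean log2 RPKM above 0 in either group, up to 4 members of each list with the smallest adjusted p, 16 fixed genes, and the 3 largest called differences in each direction of each contrast between times. This gave 208 genes, and 42 further called list members were named after their values were seen. Leaving out libraries in the marker sums was added after the data were seen. Alternatives were other pseudocounts (0.1 and 1), no filter on low values, other scalings, the 9 libraries alone, X10 replicates 1 to 3 or 4 to 6 alone, and each library left out in turn. Some items are not reported here.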

Additional observations from a re-analysis of the deposited data

Results flagged for a closer look

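In 8 of the 250 named genes, 1 X10 library lay far from the other 5 by Dixon's criterion on the log2(RPKM + 0.25) scale, as chance would give in about 1 of 20 groups. X10 replicate 1 was high for Wdr43 (11.1 RPKM, others 7.68 to 8.39), Nle1 (1.5, others 1.07 to 1.21) and the focal adhesion gene Vcl (14.5, others 9.37 to 10.5), and low for Krt19 (0.1, others 0.431 to 0.658) and Mylpf (0.168, others 0.388 to 0.469). X10 replicate 2 was low for Tsr1 (7.28, others 9.20 to 10.5), replicate 5 was low for the Nrf2 target Osgin1 (12.0, others 33.3 to 59.8), and replicate 6 was high for Dbp (17.8, others 5.56 to 8.47). Of the 13 marker sums 2 met the criterion in replicate 1, the neutrophil sum (12.6 RPKM, others 3.84 to 5.78) and the skeletal muscle sum (0.267, others 0.430 to 0.514).

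The change between PH and sham differed between 10 and 4 h for 41 named genes by the limma contrast of the 2 differences, given here as the 10 h value minus the 4 h value on the log2 scale. Among genes with a higher value at 10 h, the structural and adhesion genes were Tubb2a (1.59), Tubb2b (1.53), Krt18 (1.21) and the tetraspanin-like Tm4sf4 (1.03). Receptors and secreted factors were Tnfrsf12a (2.01), Bmper (2.37), Ctgf (1.84) and Plaur (1.24). Genes of ribosome biogenesis were Nop58 (1.25), Nop56 (0.95), Gnl3 (0.92), Tsr1 (0.85), Mybbp1a (0.72) and Wdr43 (0.64). The remaining ones were SNORA8 (2.77), Rpl28-ps3 (2.30), Cbfa2t3 (1.46), Tef (1.21), Apoc2 (0.84) and Aldoa (0.83).

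Among genes with a lower value at 10 h, enzymes of steroid, bile acid and nucleotide metabolism were Hsd3b5 (-4.13), Cyp7a1 (-3.00), Cyp26a1 (-2.66), Upp2 (-2.62), Akr1c14 (-2.17), Enpp3 (-1.67) and the carboxylesterase Ces4a (-1.56). Transporters were Slc16a12 (-1.25), Slc10a1 (-1.16), Slc22a30 (-1.07), Slco1b2 (-0.92) and Slc17a2 (-0.92), and plasma proteins were Klkb1 (-1.03), Serpind1 (-0.93) and F7 (-0.72). Fbf1 (-3.18), Prok1 (-2.52), Keg1 (-1.85), Mlxipl (-1.41), and the receptors Lifr (-1.36) and Ghr (-0.75) made up the rest. Of all 41, 8 were called under each of 14 alternatives.

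Between 10 and 20 h, the change differed for 7 named genes, by the same kind of contrast. It was more negative at 10 h for Cyp7a1 (-3.79), BC046404 (-2.05), Enpp3 (-1.83), Saa4 (-1.80) and Lgr5 (-1.23), and higher for Cbfa2t3 (1.41) and 4732419C18Rik (1.40). BC046404 (adjusted p = 0.00319) was the 1 gene of these called under all 14 alternatives.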

How the results depend on the processing

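No call at 10 h was reversed under the 20 alternative settings. The number of called genes was 678 with a pseudocount of 1, between 742 (without S10 replicate 2) and 1222 (without X10 replicate 6) when 1 library was left out, and between 812 and 1363 otherwise. Of the 154 called genes named here, 68 were called under all 18 settings other than those on replicates 1 to 3 of both groups alone. With replicates 1 to 3 of both groups alone and no replicate block, 87 of the 154 calls ended. A replicate block over replicates 1 to 3 left 0 calls by limma (4351 genes at an unadjusted p below 0.05), against 851 for the same 6 libraries without it. Between X10 and S10 libraries of the same number, the deviations from the group mean correlated at 0.102, -0.0279 and 0.105. There was thus little sign that the numbers pair the livers.

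For the difference between 10 and 4 h, 280 genes were called with X10 replicates 1 to 3 alone, and between 257 (without S10 replicate 3) and 736 (without X10 replicate 2) when 1 library was left out. For 10 and 20 h, 10 genes were called with a pseudocount of 0.1, 25 with 1, 7 with X10 replicates 4 to 6 alone, and between 7 (without X10 replicate 5) and 19 (without X10 replicate 3) when 1 library was left out. Scaling to the same median gave 6 higher and 8 lower there. The cause of these changes was not tested. The S10 group of 3 livers and its shallowest library of 17.1 M reads limit the precision of weakly expressed genes.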

Other observations

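Single genes of other lists also differed. Of the apolipoprotein list, Apoc2, the activator of lipoprotein lipase, was at 171, 236 and 332 RPKM (lowest, median, highest) in X10 and at 149, 125 and 143 RPKM in S10 (log2 fold change 0.83, SE 0.16, limma adjusted p = 0.000289). The X10 livers all lay above the S10 livers. Apoa4, which accompanies triglyceride secretion, had a mean of 1497 ± 1327 RPKM (SD, n = 6) in X10 and 406 ± 120 RPKM (SD, n = 3) in S10, a wide spread, and its call (1.51, adjusted p = 0.0114) ended without S10 replicate 2 (adjusted p = 0.0962) or 3 (0.0552). Chac1, a target of ATF4 that degrades glutathione, was at 0.634, 1.32 and 1.98 RPKM in X10 and at 3.56, 3.99 and 4.31 RPKM in S10 (-1.53, adjusted p = 0.00925), and without S10 replicate 3 its adjusted p was 0.0544. Among the endothelial markers, Ehd3 (0.78, adjusted p = 0.00254) and Tek, the angiopoietin receptor (0.67, adjusted p = 0.0129), were called higher, the call of Tek not without S10 replicate 1 (adjusted p = 0.0608) or 3 (0.0522). The other 10 of the 12 markers were not called, and 6 of the 12 had a negative log2 fold change. Flt4 was between 0.421 and 0.786 RPKM in X10 and between 0.85 and 1.06 RPKM in S10, and the sum of these markers differed by 0.146.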
